A study of Mus musculus with 12 samples.

Results

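*Fabp5*, *Crip1*, *Igfbp7* and *Pdgfrb* were followed in single-cell transcriptomes of c-Kit+ bone marrow cells, as 4 of 27998 gene columns. They were chosen from measured values and not at random. The study named *Igfbp7*, *Crip1* and *Pdgfrb* among genes enriched in stem cells and multipotent progenitors of the blood (HSC/MPP) and altered in mice with both mutations, and *Fabp5* as a member of that set. The difference between G12D/E2-KO and WT, the interaction of the mutations and the order of cell classes therefore enter as descriptions with no test. The comparisons of E2-KO with WT and of G12D with WT were tested, and they use the same WT libraries as the contrast that chose the genes. The E2-KO and G12D libraries also enter the interaction, so these tests are not independent of the choice.

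Mice on a C57BL/6 background were all injected with pIpC, at a matched age that the labels give as 8 to 12 weeks and the study's methods as somewhat younger. This agent induces the recombinase Mx1-Cre in blood-forming cells and in some other cells that respond to interferon. E2-KO mice lost both floxed copies of *Ezh2*, G12D mice switched on 1 LSL-NRas G12D allele, and G12D/E2-KO mice carried both changes, while WT mice had no Mx1-Cre, so that the recombinase itself differs between WT and all mutants. Marrow was taken at T1 (2 weeks), T2 (2 months) and T3 (4 months after pIpC), with 1 library per genotype and time point and 12 libraries in all. The 3 time points of a genotype were used as its replicates (n = 3), so the spread within a genotype holds any change with time, and the number of mice behind a library is not given in the sources used here.

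The libraries held 2350 to 3767 cells and 12.6 to 23.6 M UMIs (M is 10 to the power of 6; 1 UMI marks 1 captured RNA molecule), with a median of 3780.5 to 6975.5 UMIs per cell. The tables of G12D T1 and G12D/E2-KO T1 shared 2896 cells, and each of these was counted with G12D/E2-KO T1 alone. *Ezh2* ran from 103 to 133 CPM (UMIs per M) in WT, from 27.7 to 34.6 in E2-KO, from 81.7 to 103 for G12D and from 20.7 to 25.3 for G12D/E2-KO, and *Nras* from 52.5 to 80.3 over all 12 libraries. *Xist* stood at 1296 to 1357 CPM in the T3 libraries of WT, E2-KO and G12D and at no more than 0.608 in the other 9, G12D/E2-KO T3 included. At T3 the library with both mutations therefore differs from the other 3 in more than its genotype, and values from T1 and T2 alone are given where they change a call. Cell classes were rebuilt from marker genes, since no annotation of single cells was used here, and their names mean "like" that cell type. Of 32701 cells, 14.1% passed no gate, and 8 classes reached 20 cells in each of the libraries.

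FABP5 is a small cytosolic protein that carries fatty acids and other lipids between membranes, enzymes and nuclear receptors. CRIP1 is a short LIM-domain protein, a zinc-binding fold used for contacts between proteins. IGFBP7 is a secreted protein that binds insulin-like growth factors weakly and is best known from blood vessels and stroma. PDGFRB is a receptor tyrosine kinase for platelet-derived growth factors, which activates RAS among other pathways and is a standard marker of pericytes and fibroblasts. EZH2 is the enzyme of the Polycomb complex that methylates lysine 27 of histone H3, a mark of silenced genes found mostly where CG dinucleotides are dense.

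In GENCODE on GRCm38 (mm10), *Fabp5* (ENSMUSG00000027533) lies on the plus strand of chromosome 3 from 10012548 to 10016607 and *Crip1* (ENSMUSG00000006360) on the plus strand of chromosome 12 from 113146316 to 113153879. *Igfbp7* (ENSMUSG00000036256) lies on the minus strand of chromosome 5 from 77349240 to 77408041, and its 3′ end overlaps that of *Polr2b* on the plus strand by 85 bases. A processed pseudogene, *Fabp5l2*, has no column in the tables, and reads shared with it cannot be told from those of *Fabp5*. Because CG density matters to Polycomb, the 250 bases before the RefSeq start (GRCm38.p6) are shown for the 2 members with an entry in the table used, each CG in capitals (a CG reads the same on both strands). The *Crip1* sequence is chr12:113151762-113152011 on the plus strand, inside the GENCODE span, whose start lies further upstream than the RefSeq start, and the *Igfbp7* sequence is chr5:77408046-77408295 on the minus strand.
Crip1: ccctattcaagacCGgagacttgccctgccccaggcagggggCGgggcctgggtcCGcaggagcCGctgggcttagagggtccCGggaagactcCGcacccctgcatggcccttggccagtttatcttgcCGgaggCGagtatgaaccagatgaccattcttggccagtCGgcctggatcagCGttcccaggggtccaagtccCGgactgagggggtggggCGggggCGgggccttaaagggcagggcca
Igfbp7: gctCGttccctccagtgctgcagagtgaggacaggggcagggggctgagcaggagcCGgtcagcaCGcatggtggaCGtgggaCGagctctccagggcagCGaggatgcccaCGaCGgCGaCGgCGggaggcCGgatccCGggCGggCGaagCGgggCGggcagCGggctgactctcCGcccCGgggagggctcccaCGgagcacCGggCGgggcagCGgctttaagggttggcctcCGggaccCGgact
The *Crip1* sequence held 13 CG at 67.2% G and C, and 31.5% of 32851 regions of this length in the table held at least as many. The *Igfbp7* sequence held 26 CG at 74% G and C, a number reached by 9.59% of the regions. The median region held 6 CG and 92.1% held at least 1. These counts describe the sequence and say nothing of the histone mark in these cells, which was not measured here.

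*Fabp5*, the lipid carrier, was higher in E2-KO than in WT at every time point. It stood at 65.6, 70.1 and 61.5 CPM in WT at T1, T2 and T3 and at 117, 119 and 108 CPM in E2-KO. The G12D libraries had 59.4, 74.2 and 99.4 CPM and the G12D/E2-KO libraries 118, 116 and 120 CPM. All 6 libraries with deleted *Ezh2* lay above all 6 others. Those of G12D/E2-KO belong to the contrast that chose the gene, and the share of genes with such a separation was not computed. The G12D libraries lay on both sides of the WT range, below it at T1 and above it at T2 and T3. The mean was 65.7 ± 4.30 CPM in WT (SD, n = 3), 115 ± 5.70 in E2-KO, 77.7 ± 20.2 for G12D and 118 ± 2.25 for G12D/E2-KO. In E2-KO it rose against WT by 0.79 on the log2 scale (SE 0.16, edgeR quasi-likelihood test with Benjamini-Hochberg adjustment, adjusted p 0.0394). The same test called 1.59% of 12848 genes in either direction. The change kept its direction without any of the 12 libraries (0.71 to 0.86) but passed without 4 of them only. The call was lost without any of the WT or E2-KO libraries, without G12D T2 and without G12D/E2-KO T2, with the highest adjusted p of 0.243 without WT T3. With T1 and T2 alone the change was 0.76 (adjusted p 0.0333).

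In G12D *Fabp5* differed from WT by 0.27 on the log2 scale (SE 0.16, adjusted p 0.534), less than the spread between libraries. As deposited, with the shared cells also in G12D T1, this value was 0.46 (adjusted p 0.333). G12D/E2-KO differed from WT by 0.80, close to the E2-KO value, and the interaction, which is that change minus the sum of both single-mutant changes, was -0.25. The interaction is a description only and its sign is not stable, at 0.039 with T1 and T2 alone and from -0.42 to -0.0011 without each library in turn. The percentage of genes called in G12D against WT was 0.109.

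**Figure D1:**
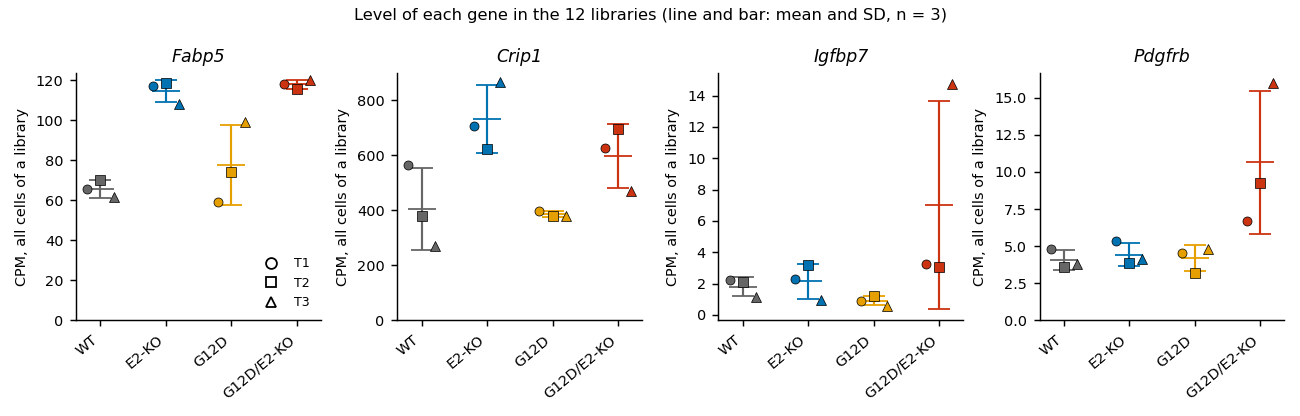
Level of each member gene in the 12 libraries, as CPM over all cells of a library on a linear axis for each gene. Circles, squares and triangles are T1, T2 and T3, and the line and bar give the mean and SD over the 3 libraries of a genotype. *Fabp5* and *Crip1* in E2-KO lie above all WT libraries, and *Igfbp7* and *Pdgfrb* are highest in the G12D/E2-KO T3 library, at 14.7 and 16 CPM.

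Among the cell classes, *Fabp5* was highest in promonocytes (ProMo), at 260 ± 52.6 CPM over 12 libraries, and lowest in late granulocytes (late GN), at 10.4 ± 2.91 CPM. Megakaryocytic (135 ± 29.5, 11 libraries), basophil and mast (127 ± 42.7) and HSC/MPP cells (126 ± 40.4) followed ProMo and did not differ beyond their spread. Megakaryocyte-erythroid progenitors (MEP) had 108 ± 33.4 CPM, B lymphoid cells 105 ± 44.8, early erythroid cells 89.8 ± 56.2, progenitors of granulocytes (GMP/early GN) 76.2 ± 19.0 and late erythroid cells 23.9 ± 12.2. No test applies to this order, which helped choose the gene.

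Within classes the E2-KO difference in *Fabp5* was steepest in early erythroid cells. There it stood at 55.4, 44.3 and 45.7 CPM in WT at T1, T2 and T3, at 117, 120 and 152 CPM in E2-KO, at 47.0, 53.3 and 41.3 CPM for G12D and at 226, 91.2 and 85.0 CPM for G12D/E2-KO. Every library with deleted *Ezh2* lay above every other library, those of G12D/E2-KO being part of the contrast that chose the gene. How many genes separate in this way within the class was not computed. *Fabp5* rose in E2-KO early erythroid cells by 1.46 on the log2 scale (SE 0.30, edgeR adjusted p 0.0407), where 2.69% of 9613 genes passed. The change ran from 1.18 to 1.72 without each library in turn and passed without 5 of 12, and with T1 and T2 alone it was 1.30 (adjusted p 0.157). The call was lost without any WT library, without E2-KO T2 or T3, without G12D T3 and without G12D/E2-KO T2. With every cell thinned to 2000 UMIs, 9.05% of 1205 WT early erythroid cells held a *Fabp5* UMI (exact 95% interval 7.49 to 10.8) and 21.1% of 1180 E2-KO cells (18.8 to 23.5). Unthinned these shares were 41.2% and 65.6%, at medians of 14565 and 12113 UMIs per cell. In late GN, the class with the lowest level, the thinned shares were 2.41% in WT (median 4838 UMIs before thinning) and 1.45% in E2-KO (3881.5). Intervals for shares of cells cover counting error only and not the spread between mice.

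B lymphoid cells also held more *Fabp5* in E2-KO. They had 70.9, 44.2 and 111 CPM in WT and 139, 138 and 166 CPM in E2-KO, with no overlap, from 12 UMIs in 20 cells in WT T3 to 263 UMIs in 414 cells in E2-KO T2. The G12D/E2-KO T3 library had 1 such cell, so this class was fitted over the 9 libraries of WT, E2-KO and G12D, a fit added after the cell numbers were seen. *Fabp5* rose by 1.28 on the log2 scale (SE 0.24, edgeR adjusted p 0.00143) in E2-KO, where 2.62% of 7027 genes passed. It ran from 0.89 to 1.56 without each library in turn, and the call was lost only without E2-KO T1 (adjusted p 0.0670). In G12D B lymphoid cells *Fabp5* differed from WT by 0.38 (adjusted p 0.999), where 0.114% of genes passed. That value ran from -0.54 to 0.61 without each library in turn. The mean was 69.5 ± 32.9 CPM in G12D and 75.2 ± 33.4 in WT.

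In the other classes the differences were smaller. GMP/early GN had 64.6, 73.3 and 72.5 CPM in WT and 94.7, 102 and 93.1 in E2-KO, again with no overlap, at 0.48 on the log2 scale (adjusted p 0.209). HSC/MPP cells had 81.8, 136 and 89.1 CPM in WT and 128, 156 and 103 in E2-KO, at 0.43 (adjusted p 0.557), and in late GN the E2-KO value was lower than WT by 0.30 on the log2 scale (adjusted p 0.718). Over the 8 classes the E2-KO change was positive in 7 and passed in 1, early erythroid cells, against 1.35% of all tests of genes in these classes. All 3 E2-KO values lay above all 3 WT values in 2 of 8 classes, which held for 7.48% of genes and classes together. That share counts this direction only, over 104033 pairs of gene and class that include sparse genes left out of the tests. In G12D *Fabp5* passed in 0 of 8 classes (3 positive), where 0.139% of tests passed.

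*Crip1*, the LIM-domain gene, was also higher in every E2-KO library than in any WT library, but WT varied with the time point. WT stood at 564, 378 and 271 CPM, E2-KO at 707, 621 and 867 CPM, G12D at 397, 380 and 379 CPM and G12D/E2-KO at 626, 694 and 469 CPM. The means were 404 ± 148 CPM in WT, 732 ± 124 in E2-KO, 385 ± 10.1 for G12D and 596 ± 115 for G12D/E2-KO (SD, n = 3). G12D stayed within the WT range and G12D/E2-KO overlapped it at T3. E2-KO differed from WT by 0.91 on the log2 scale (SE 0.25, edgeR adjusted p 0.109), which did not pass, whereas DESeq2 on the same counts gave 0.91 with an adjusted p of 0.00815. Without each library in turn the edgeR value ran from 0.54 to 1.12 and passed in 0 of 12, and with T1 and T2 alone it was 0.48 (adjusted p 0.221). G12D differed from WT by 0.01 (adjusted p 0.989), G12D/E2-KO by 0.55 (0.35 to 0.77 without each library in turn), and the interaction was -0.37. The interaction ran from -0.58 to -0.042 without each library in turn and turned to 0.27 with T1 and T2 alone.

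B lymphoid cells, the early B lineage of this fraction, had the highest *Crip1* level of the classes, and their part of the *Crip1* UMIs differed widely between libraries. They had 4486 ± 620 CPM over 11 libraries, above the dendritic cells (2815 ± 1103, 9 libraries) and far above basophil and mast (897 ± 312), HSC/MPP (841 ± 237), MEP (782 ± 186) and ProMo cells (758 ± 325). The lowest levels were in late GN (133 ± 75.1) and late erythroid cells (75.1 ± 30.3). With the libraries of a genotype pooled, B lymphoid cells took 3.78% of all UMIs in WT and 39.9% of those of *Crip1*. The pair of shares was 8.67% and 51.8% in E2-KO, 1.79% and 21.0% for G12D, and 1.25% and 10.9% for G12D/E2-KO, where dendritic cells held 16.1%, most of it from T1. By library the B lymphoid share of *Crip1* UMIs was 56.8%, 40.4% and 8.57% in WT at T1, T2 and T3, and 49.4%, 52.6% and 53.8% in E2-KO. It was 9.87%, 41.9% and 12.9% in G12D and 8.24%, 19.8% and 0.0138% (1 UMI) in G12D/E2-KO, where the dendritic share was 31.3%, 7.22% and 2.54%. The WT libraries held 242, 164 and 20 B lymphoid cells at T1, T2 and T3, in the same order as the *Crip1* level, and their part in the WT spread was not tested. In a sum over all cells, more cells of a *Crip1*-rich class and more *Crip1* per cell cannot be told apart, so the classes were compared next.

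Within B lymphoid cells *Crip1* passed the test in neither single mutant. It stood at 3937, 4570 and 4174 CPM in WT, 4404, 3706 and 4889 in E2-KO and 4312, 4561 and 4630 in G12D, with overlap between all groups. The log2 difference from WT was 0.17 in E2-KO (SE 0.12, edgeR adjusted p 0.596) and 0.16 in G12D (SE 0.12, adjusted p 0.999).

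The myeloid, erythroid and progenitor classes held more *Crip1* in E2-KO by their means. The log2 difference from WT was positive in 8 of 8 classes, from 0.48 in GMP/early GN to 1.48 in late GN, and passed in 0 of 8. The lowest adjusted p was 0.0541, in early erythroid cells (0.50, SE 0.13), next to 0.0550 in late GN (SE 0.31). All 3 E2-KO values lay above all 3 WT values in 5 of 8 classes: early and late erythroid cells, MEP, ProMo and late GN. This held for 7.48% of genes and classes together, a share that includes genes far sparser than *Crip1*. In late GN, the class of mature neutrophil precursors, WT had 78.4, 51.0 and 74.8 CPM, E2-KO 191, 166 and 258 CPM, G12D 52.5, 64.5 and 81.7 CPM and G12D/E2-KO 200, 236 and 137 CPM. The libraries with deleted *Ezh2* all lay above the others, those of G12D/E2-KO being part of the contrast that chose the gene. The share of genes with such a separation in this class was not computed. In ProMo, WT had 520, 327 and 521 CPM, E2-KO 891, 796 and 1468 CPM, G12D 804, 520 and 474 CPM and G12D/E2-KO 1013, 1112 and 646 CPM, so G12D T1 alone reached into the range of the *Ezh2*-deleted libraries. With T1 and T2 alone, an alternative added after seeing the data, *Crip1* passed in 2 classes in E2-KO, at 1.05 in ProMo (SE 0.17, adjusted p 0.000272) and 1.38 in late GN (SE 0.19, adjusted p 0.000950). In the same fit it passed in 1 class in G12D, ProMo, at 0.72 (adjusted p 0.0343), and over all 12 libraries that value was 0.44 (adjusted p 0.9998). The E2-KO value in ProMo over all 12 libraries was 1.25 (SE 0.41, edgeR adjusted p 0.278), and it passed in 0 of 12 fits with a library left out. Fits of T1 and T2 hold 2 libraries per genotype, and their shares of genes called per class are not given here. Over all cells such a fit called 185 of 12899 genes in E2-KO and 19 in G12D. The late GN value also passed without G12D T1, G12D T3, G12D/E2-KO T2 or G12D/E2-KO T3, and the early erythroid value without E2-KO T2, G12D/E2-KO T2 or G12D/E2-KO T3. These were 4 of 12 and 3 of 12 fits. The highest edgeR adjusted p was 0.280 in late GN (without E2-KO T3) and 0.324 in early erythroid cells (without E2-KO T1).

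At a fixed 2000 UMIs per cell, a *Crip1* UMI was found in 10.1% of 2245 WT late GN cells (exact 95% interval 8.85 to 11.4) and 27.7% of 826 E2-KO cells (24.7 to 30.9). The share was 10.6% in G12D and 26.4% in G12D/E2-KO. Over all cells the thinned shares were 31.9% in WT, 49.1% in E2-KO, 30.9% for G12D and 46.7% for G12D/E2-KO, against 56.4%, 71.0%, 52.0% and 67.5% before thinning. Cells under 2000 UMIs were left out, which removed 0 WT, 216 E2-KO, 32 G12D and 499 G12D/E2-KO cells. No class here lacks *Crip1*, so no share gives the background of free RNA for it.

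**Figure D2:**
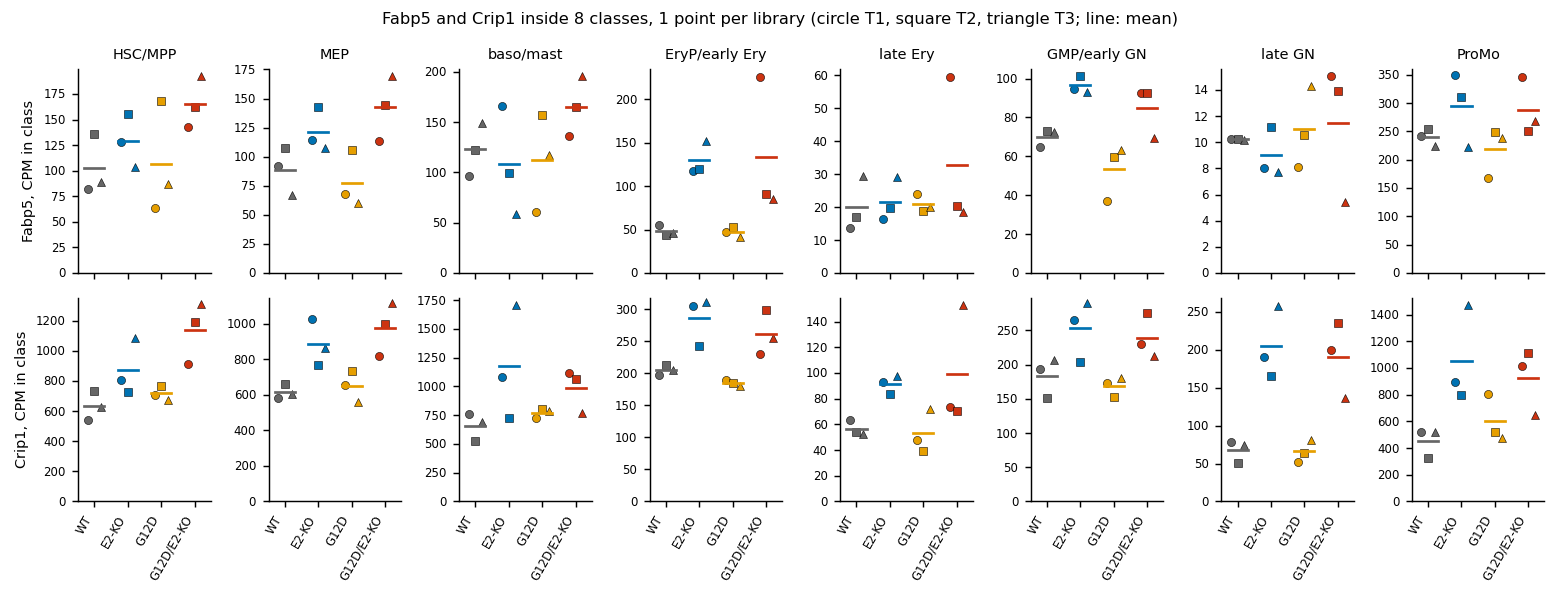
CPM of *Fabp5* (upper row) and *Crip1* (lower row) within 8 marker-gated classes, 1 point per library, with circles for T1, squares for T2, triangles for T3 and a line at the mean of each genotype. Axes are linear, start at 0 and differ between panels. In early erythroid cells *Fabp5* and in late GN *Crip1* show no overlap between the 6 libraries with deleted *Ezh2* and the 6 others. The G12D/E2-KO libraries among them belong to the contrast that chose the genes, and the share of genes with such a separation was not computed.

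HSC/MPP cells, in which the study's choice was made, had *Crip1* at 543, 736 and 628 CPM in WT, 807, 729 and 1085 in E2-KO, 709, 766 and 676 for G12D and 911, 1192 and 1313 for G12D/E2-KO. All 3 G12D/E2-KO values lay above all WT values, a description of the contrast that chose the gene. E2-KO differed from WT by 0.53 (adjusted p 0.303) and G12D by 0.29 (adjusted p 0.997).

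*Igfbp7*, the secreted binding protein, was sparse, and its few UMIs came from different cells in different libraries. WT held 37, 49 and 22 UMIs at T1, T2 and T3, E2-KO 44, 68 and 12, G12D 18, 21 and 10, and G12D/E2-KO 73, 57 and 227. As CPM these were 2.20, 2.07 and 1.13 in WT, 2.32, 3.15 and 0.95 in E2-KO, 0.913, 1.195 and 0.594 for G12D and 3.28, 3.07 and 14.7 for G12D/E2-KO, where 3 UMIs of a library equal 0.127 to 0.237 CPM. G12D/E2-KO T3 stood apart from all other libraries, and G12D, E2-KO and WT overlapped. E2-KO differed from WT by 0.26 on the log2 scale (SE 0.63, edgeR adjusted p 0.874) and G12D by -0.95 (SE 0.68, adjusted p 0.602). G12D/E2-KO differed from WT by 1.78 and the interaction was 2.47. Without G12D/E2-KO T3 these were 0.58 and 1.34.

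A part of the WT *Igfbp7* signal sat in cells with markers of other tissues. Cells with UMIs of at least 3 stromal or at least 3 endothelial markers held 22 of 37 *Igfbp7* UMIs in WT T1 (13 such cells), 14 of 49 in WT T2 (2 cells) and 5 of 22 in WT T3 (4 cells), and 0 in each of the other 9 libraries. All 14 in WT T2 came from 1 cell of the MEP gate with 7 stromal markers. The 15 stromal markers summed to 6.10 to 21.0 CPM in WT, 1.85 to 4.16 in E2-KO, 1.62 to 2.9 for G12D and 2.21 to 3.63 for G12D/E2-KO, with *Tagln*, *Cspg4* and *Lum* at 0 in WT. The 10 endothelial markers summed to 20.1 to 28.8 CPM over all libraries, with *Sox17* at 0 in WT, E2-KO and G12D. *Pecam1* alone gave 15.1 to 23.5 CPM of that sum, and *Cdh5* at most 0.475. With the cells of at least 3 stromal or at least 3 endothelial markers left out, WT *Igfbp7* stood at 0.898, 1.48 and 0.873 CPM. The difference from WT was then 0.999 in E2-KO (adjusted p 0.465), -0.22 in G12D (adjusted p 0.920), and G12D/E2-KO gave 2.49.

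By class, *Igfbp7* was highest in basophil and mast cells among the 8 classes compared, at 27.8 ± 30.4 CPM over 12 libraries. HSC/MPP cells had 7.79 ± 13.7 and MEP 7.78 ± 11.5 CPM, of which 14 WT T2 UMIs were the cell above. The macrophage gate, with 20 cells or more in WT T1 alone, had 75.6 CPM from 12 UMIs, and all 12 sat among the 3 of its 29 cells that carried at least 3 stromal or at least 3 endothelial markers. Basophil and mast cells had 12.1, 21.0 and 0 CPM in WT (2, 6 and 0 UMIs), 32.7, 40.6 and 16.6 in E2-KO (11, 9 and 2), 3.21, 16.9 and 9.78 for G12D (1, 3 and 3), and 32.8, 31.9 and 115 for G12D/E2-KO (13, 12 and 95). All 3 G12D/E2-KO values lay above all WT values, a description of the contrast that chose the gene. For *Igfbp7* this held in 1 of 8 classes. In G12D/E2-KO T3 the 95 UMIs were spread over 57 of 140 cells with at most 5 in a cell, and basophil and mast cells were 5.35% of that library's cells, against 0.879% to 2.16% in the other 11. At 2000 UMIs per cell, 1.23% of 81 WT, 9.80% of 102 E2-KO, 0.769% of 130 G12D and 11.7% of 266 G12D/E2-KO basophil and mast cells held an *Igfbp7* UMI, and 0.178% of 2245 WT late GN cells (medians of 6463 and 4838 UMIs in WT before thinning). The unthinned shares were 7.41%, 17.0%, 5.38% and 27.8%.

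In HSC/MPP cells G12D/E2-KO T3 held 30 *Igfbp7* UMIs in 20 of 145 cells (50.2 CPM), and the other 11 libraries held 0 to 10 UMIs each. Only GMP/early GN passed the low-count filter for a test. WT had 0.593, 2.03 and 0.434 CPM there, from 1, 9 and 1 UMIs, and E2-KO 4.23, 5.82 and 1.70 CPM, from 21, 31 and 3 UMIs. The E2-KO difference was 1.85 on the log2 scale (SE 0.57, edgeR adjusted p 0.118) and the groups overlapped. In G12D/E2-KO T1, 23 of 73 UMIs sat in 6 of 82 cells of the T/NK gate, 10 of them in 1 cell.

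*Pdgfrb*, the growth factor receptor, was sparse but spread over many cells. The gene (ENSMUSG00000024620) lies on the plus strand of chromosome 18 from 61045150 to 61085061, and *Csf1r*, another receptor kinase gene, starts 15537 bases beyond its end. *Pdgfrb* had 81, 85 and 74 UMIs in WT, 101, 83 and 52 in E2-KO, 90, 56 and 81 for G12D and 149, 172 and 247 for G12D/E2-KO. The CPM values were 4.81, 3.59 and 3.79 in WT, 5.32, 3.85 and 4.11 in E2-KO, 4.56, 3.19 and 4.81 for G12D and 6.69, 9.26 and 16 for G12D/E2-KO. Neither single mutant passed the test. E2-KO differed from WT by 0.11 on the log2 scale (SE 0.24, edgeR adjusted p 0.854) and G12D by 0.07 (SE 0.24, adjusted p 0.930), and all 9 libraries of WT, E2-KO and G12D lay between 3.19 and 5.32 CPM. The 3 G12D/E2-KO libraries lay above all others, 1.28 over WT on the log2 scale, with an interaction of 1.10, and these values are the contrasts that chose the gene. The interaction ran from 0.85 to 1.41 without each library in turn. No cell of the G12D/E2-KO libraries held more than 4 *Pdgfrb* UMIs, and the 5 highest cells of a library together held 12 to 16. Stromal or endothelial cells held 2, 5 and 0 of the WT UMIs and 0 in the other 9 libraries.

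By class, *Pdgfrb* was highest in HSC/MPP cells (40.2 ± 24.4 CPM over 12 libraries), next to MEP (33.2 ± 9.84) and basophil and mast cells (24.2 ± 11.1), which did not differ beyond their spread. All other classes but the macrophage gate (18.9 CPM from 3 UMIs in WT T1) lay at 5.78 CPM or less by their mean, down to 0.441 in late GN. HSC/MPP cells had 37.8, 19.1 and 35.6 CPM in WT, 47.1, 34.4 and 26.4 in E2-KO, 26.2, 18.9 and 27.8 for G12D and 42.0, 57.8 and 109 for G12D/E2-KO. WT and the single mutants overlapped, and the lowest G12D/E2-KO library lay above the highest of WT. That describes the contrast that chose the gene, and it held in 2 of 8 classes. The E2-KO difference in HSC/MPP cells was 0.37 (SE 0.33, edgeR adjusted p 0.789) and the G12D difference -0.18 (SE 0.34, adjusted p 0.9995). In MEP WT had 27.3, 51.3 and 22.4 CPM and G12D/E2-KO 31.0, 36.0 and 43.3 CPM, with overlap. *Pdgfrb* passed the low-count filter in 4 of 8 classes and passed the test in 0 of them for either single mutant. At 2000 UMIs per cell, 5.14% of 370 WT HSC/MPP cells held a *Pdgfrb* UMI (exact 95% interval 3.12 to 7.90), 7.53% of 332 E2-KO, 4.53% of 331 G12D and 13.2% of 517 G12D/E2-KO cells (10.4 to 16.4). Before thinning the shares were 14.3%, 16.3%, 13.9% and 23.5%, at medians of 5162, 4422, 5525.5 and 4168 UMIs. In late GN, the class with the lowest level, the WT share was 0.0891% thinned and 0.134% before, at a median of 4838 UMIs.

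**Figure D3:**
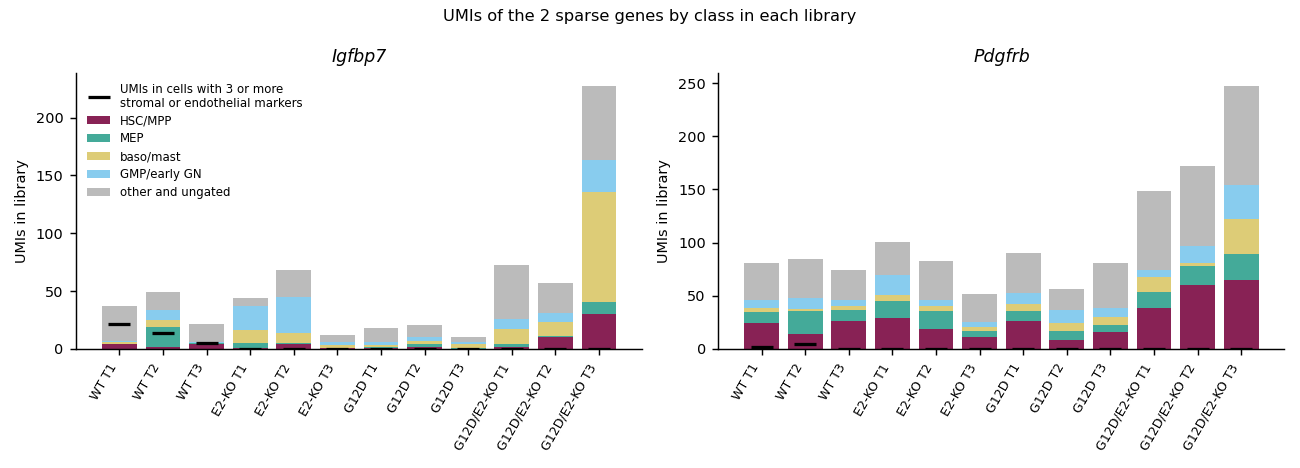
UMIs of *Igfbp7* (left) and *Pdgfrb* (right) in each of the 12 libraries, stacked by cell class, with a black bar at the number of UMIs in cells with 3 or more stromal or endothelial markers. For *Igfbp7* that bar stands at 22, 14 and 5 in WT and at 0 elsewhere, and the 95 basophil and mast UMIs of G12D/E2-KO T3 form the largest block. *Pdgfrb* has HSC/MPP UMIs in every library.

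G12D/E2-KO T3 held 227 of the 357 *Igfbp7* UMIs and 247 of the 568 *Pdgfrb* UMIs of its genotype. Without it the log2 difference of G12D/E2-KO from WT went from 1.78 to 0.58 for *Igfbp7* and from 1.28 to 1.04 for *Pdgfrb*, whose T1 and T2 libraries also lay above all 9 libraries of the other genotypes. These values describe the contrasts that chose the genes, and the share of genes with such a separation was not computed. G12D/E2-KO T3 also held 411 cells with a UMI of *Trnp1*, a gene with such UMIs in 0 to 3 cells of each other library, and those cells held 56 *Igfbp7* and 87 *Pdgfrb* UMIs. Whether they share an origin was not tested.

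**Figure D4:**
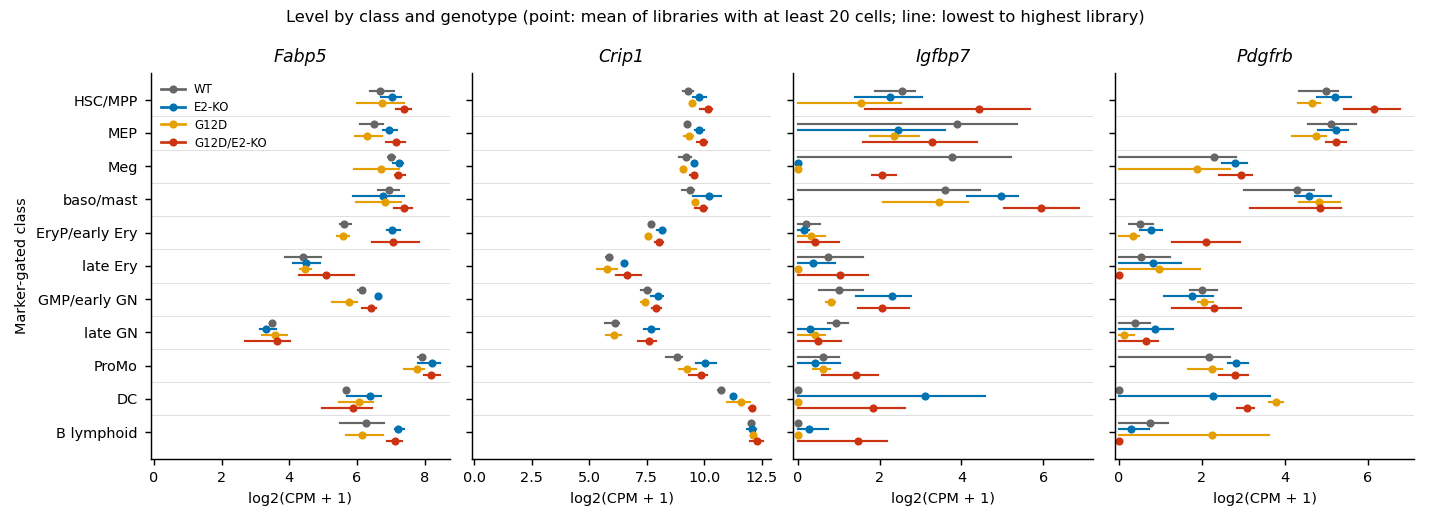
Level of each member in 11 cell classes, as log2(CPM + 1), with a point at the mean over libraries with at least 20 cells of the class and a line from the lowest to the highest library, in 4 colours for the genotypes. In every genotype *Crip1* is highest in B lymphoid cells and *Fabp5* in ProMo. *Pdgfrb* is highest in HSC/MPP or MEP cells in WT, E2-KO and G12D/E2-KO and in basophil and mast cells in G12D, at 27.2 CPM next to 26.1 in MEP and 24.3 in HSC/MPP cells.

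The mix of classes differed between libraries, so the levels were also computed with the WT share of UMIs in each of the 8 classes, which held 68.8% to 83.8% of the UMIs of a library. For *Fabp5* the log2 ratio of the E2-KO to the WT mean over these classes was 0.81 as measured and 0.75 with WT shares, and for G12D/E2-KO 0.84 and 0.79. With WT shares G12D/E2-KO stood at 144, 86.2 and 81.7 CPM at T1, T2 and T3, against a WT mean of 60.1, so T1 weighs most. For *Crip1* in E2-KO the ratio was 0.71 and 0.75, and for G12D/E2-KO 0.98 and 0.70. The 8 classes leave out B lymphoid and dendritic cells. B lymphoid cells held 39.9% of the *Crip1* UMIs in WT and 51.8% in E2-KO, so their number does not enter these values. In G12D the ratio went from 0.26 to -0.12 for *Fabp5* and from 0.32 to 0.04 for *Crip1*. For the sparse genes in G12D/E2-KO the value went from 2.35 to 1.16 for *Igfbp7* and from 1.48 to 0.96 for *Pdgfrb*. With WT shares *Igfbp7* stood at 1.09, 1.38 and 5.99 CPM at T1, T2 and T3, against a WT mean of 1.26. Only T3 lay well above that mean. *Pdgfrb* stood at 4.90, 5.36 and 10.5 CPM, against a WT mean of 3.57. In E2-KO *Igfbp7* went from 0.69 to 0.20 and *Pdgfrb* from 0.25 to 0.26. With classes taken from WT clusters in place of gates, 7 classes had enough cells in every library, and basophil and mast cells were not among them. *Fabp5* then went from 0.79 to 0.65 in E2-KO and from 0.88 to 0.74 in G12D/E2-KO, and *Crip1* from 0.70 to 0.66 and from 0.98 to 0.70. *Igfbp7* went from 1.14 to 0.99 in E2-KO and from 2.72 to 2.17 in G12D/E2-KO, a smaller fall than with gates, and *Pdgfrb* in G12D/E2-KO from 1.43 to 1.02.

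**Figure D5:**
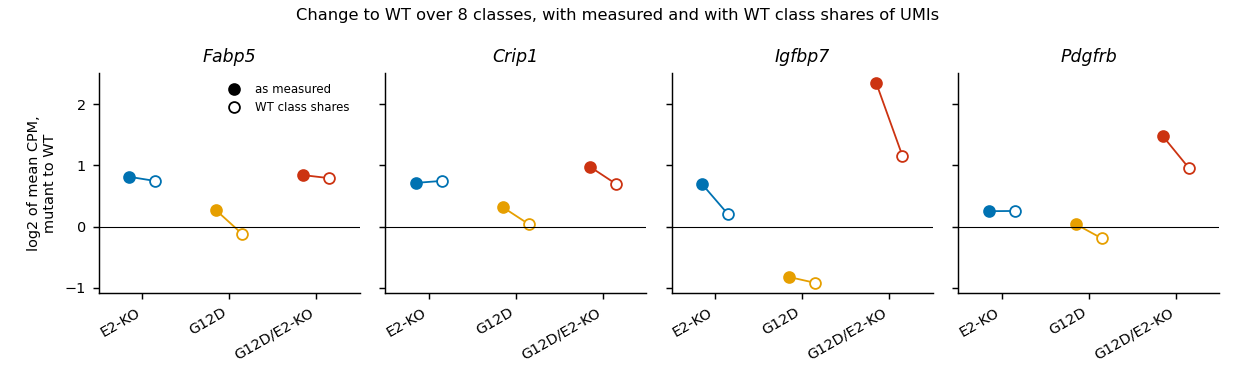
Log2 ratio of the mean CPM over 8 classes in each mutant to that in WT, for each member, as measured (filled circles) and with the WT share of UMIs per class (open circles), joined by a line. The filled and open circles of *Fabp5* and *Crip1* in E2-KO nearly coincide, at 0.81 and 0.75 and at 0.71 and 0.75. The 8 classes leave out B lymphoid cells, which held 39.9% of the *Crip1* UMIs in WT and 51.8% in E2-KO.

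Time gave no call for any member. In WT, E2-KO and G12D the T3 libraries held *Xist* and the T1 libraries nearly none. They may thus differ in sex, which the labels do not give, and time cannot be told apart from this difference there. T3 differed from T1 over the 4 genotypes by 0.12 for *Fabp5* (edgeR adjusted p 0.709), -0.31 for *Crip1* (0.505), 0.22 for *Igfbp7* (0.875) and 0.15 for *Pdgfrb* (0.746) on the log2 scale. The percentage of 12848 genes called was 0, with 1677 genes at an unadjusted p under 0.05 and 19 called by DESeq2. With *Xist* as a covariate, a fit in which the T3 term rests on the T3 library without *Xist*, the *Igfbp7* value was 1.77 (adjusted p 0.0382). Within time points *Fabp5* was 0.84, 0.76 and 0.82 higher in E2-KO than in WT on the log2 scale at T1, T2 and T3, and *Crip1* 0.33, 0.72 and 1.68. *Igfbp7* in G12D/E2-KO against WT went 0.58, 0.57 and 3.71, and *Pdgfrb* 0.47, 1.37 and 2.08.

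Side by side, *Fabp5* and *Crip1* were the members whose E2-KO libraries did not overlap WT over all cells, 2 of 4, as did 25.7% of the genes tested. Against WT, 0 of 4 members in G12D (16.8% of genes) and 3 of 4 in G12D/E2-KO (25.2% of genes) had no overlap, *Crip1* being the exception. The G12D/E2-KO count belongs to the contrast that chose the genes and nothing is read from it. By the edgeR test 1 of 4 members passed in E2-KO and 0 of 4 in G12D.

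Relatives of the members were read from lists chosen with earlier results of these data known. Of 48 genes of fatty acid handling, 37 were tested. In E2-KO 2 of the 37 passed, *Crabp1*, a carrier of retinoic acid, and *Fabp4*, the fatty acid carrier of fat cells and macrophages. The share over all genes tested was 1.59%, and nothing is read from the count, since *Crabp1* had to differ. *Crabp1* had 0 UMIs in all WT libraries and 0.948, 2.13 and 1.42 CPM in E2-KO. In G12D it had 0 UMIs and in G12D/E2-KO, where *Ezh2* is deleted as well, 0, 0.323 and 0 CPM, so it entered the fit only through the group in which it was high and its call is no support. *Fabp4* had 7.31, 2.92 and 3.33 CPM in WT and 1.53, 0.973 and 1.27 CPM in E2-KO, a fall of 1.79 on the log2 scale (SE 0.31, edgeR adjusted p 0.0166). In G12D it had 1.12, 1.31 and 0.831 CPM (adjusted p 0.0565) and in G12D/E2-KO 1.08, 0.592 and 1.17 CPM, so all 9 mutant libraries lay below all WT libraries. The macrophage gate of WT T1 had 529 CPM of *Fabp4*. The sum of the stromal markers, given with *Igfbp7*, was also higher in every WT library than in any mutant library. *Cxcl12* gave much of that sum, with 3.74 to 14.9 CPM in WT and at most 2.11 in the mutants. Not every marker followed it, as *Col1a1* had at most 0.297 CPM in WT and 0.431 in G12D/E2-KO T2. The part of macrophage-like or stromal cells in the *Fabp4* difference was not tested.

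Of 46 LIM-domain genes 32 were tested, of 29 genes of the insulin-like growth factor axis 13, and of 38 PDGF ligands, class III receptor kinases and PDGF signal proteins 33. In each of these lists 0 genes passed in E2-KO and 0 in G12D by edgeR, next to 1.59% and 0.109% of all genes, shares at which lists of this size would hold few calls or none. Their median log2 differences in E2-KO were -0.03, 0.12 and 0.10, next to -0.01 for fatty acid handling and 0.00 over all genes tested. In G12D the medians were 0.16, 0.12 and 0.02, with -0.03 for fatty acid handling and -0.01 over all genes.

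Close relatives and neighbours had patterns of their own. *Crip2*, the LIM gene next to *Crip1*, had 36.8 ± 8.52 CPM in WT and 38.8 ± 11.1 in E2-KO (log2 0.03, edgeR adjusted p 0.982), and in WT it was highest in early erythroid cells (98.8 CPM), whereas *Crip1* was highest in B lymphoid cells. *Pdgfra*, the other PDGF receptor, had 4 UMIs in WT, 1 in G12D and 0 in E2-KO and G12D/E2-KO. *Csf1r*, the macrophage growth factor receptor beyond *Pdgfrb*, had 6.09 ± 0.750 CPM in WT, 8.78 ± 0.769 in E2-KO (adjusted p 0.398) and 14.1 ± 4.57 in G12D (adjusted p 0.189), and it was highest in WT ProMo (52.9 CPM), not in HSC/MPP cells (3.01 CPM). *Kit*, the receptor by which the cells were enriched, had 51.9 ± 5.72 CPM in WT, 55.5 ± 4.41 in E2-KO, 46.3 ± 2.84 for G12D and 68.3 ± 20.1 for G12D/E2-KO. *Cd93*, a surface protein reported to bind IGFBP7, had 37.0 ± 7.29 CPM in WT, 37.3 ± 3.55 in E2-KO (adjusted p 0.993) and 53.7 ± 12.1 in G12D (adjusted p 0.293).

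Likeness of pattern was measured as Pearson's r of log2(CPM + 1) over 96 points, 12 libraries by 8 classes, which share libraries and depth and so carry no p. *Fabp5* was most like *Hint1* (r 0.92), *Prdx1* (0.92), *Mif* (0.91), *Dctpp1* (0.90) and *Slc25a4* (0.90). *Crip1* was most like *S100a10* (0.90), *Madd* (0.89), *Zmiz1* (0.88), *Foxp1* (0.88) and *Fyn* (0.88). *Igfbp7* was most like *Cpa3* (0.78), *Itga2b* (0.74), *4930519L02Rik* (0.71), *Stx3* (0.71) and *Slc18a2* (0.69), of which *Cpa3* and *4930519L02Rik* lead the basophil and mast class in WT. *Cpa3* is a marker of that gate, so its high level there follows in part from the gating. *Pdgfrb* was most like *Ptprcap* (0.92), *Meis1* (0.91), *Angpt1* (0.91), *Dapp1* (0.91) and *Hp1bp3* (0.89), of which *Meis1* is an HSC/MPP gate marker. Among the members themselves r ran from 0.36 between *Fabp5* and *Igfbp7* to 0.83 between *Crip1* and *Pdgfrb*.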

How the data were processed

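Magnetically enriched c-Kit+ bone marrow cells were sequenced cell by cell with the 10x Genomics 3′ kit. Per the submitters' processing notes, reads were processed with Cell Ranger on mm10, and the authors deposited raw UMI counts of each gene and cell, after removing cells rich in mitochondrial transcripts and Scrublet doublets. No further cell filter or doublet caller was run, and free RNA was not removed.

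Cells present in 2 tables were found by cosine above 0.9 and kept once. CPM is the UMIs of a gene per M UMIs (M is 10 to the power of 6) of the library, or of the library and class. Each cell, scaled to 10000 UMIs, took the class whose markers had the highest mean standardised score (at least 0.5, at least 0.25 above the next, at least 2 markers present). WT clusters gave the same class in 85.5% of cells. For sums per library, edgeR 4.0.16 was used under R 4.3.3 with limma 3.58.1 (filterByExpr, TMM, robust glmQLFit, glmQLFTest, two-sided) and a model of genotype plus time point for all 12 libraries, leaving 6 residual degrees of freedom, and sums per class in the same way for 8 classes. The time point, which the labels share across genotypes, is the block. P-values were adjusted by Benjamini-Hochberg over all genes of a fit with a threshold of 0.05. DESeq2 1.42.0, other filters and scalings, left-out libraries and *Xist* as a covariate were alternatives. The fit was also run on simulated data with known changes, and the outcome is not given here. G12D/E2-KO and interaction values carry no p because they chose the genes.

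The 4 members, the gene lists, the marker lists and the alternatives were chosen with earlier results of these data known. Named genes are the members, list genes past the threshold (at most 4 per list and contrast), 6 relatives or neighbours, and for each member the 5 genes with the highest r among those with a mean of at least 10 CPM. Shares of cells were computed after thinning to 2000 UMIs, with exact (Clopper-Pearson) intervals. Of 2 members with a start region in the RefSeq table the sequence is shown, and other sequences were not used here. Depth was 12.6 to 23.6 M UMIs per library, so 3 UMIs, the limit that a count of 0 allows, were 0.127 to 0.237 CPM.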

Additional observations from a re-analysis of the deposited data

Results flagged for a closer look

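Within each time point the value of each member was compared among the 4 libraries, 1 per genotype, by the gap of the highest or lowest library to its neighbour over the whole range, in 12 groups of 4 libraries (Dixon's ratio, against its 95% critical value). Chance flags about 1 in 20 such groups. *Igfbp7* in G12D/E2-KO T3 stood at 14.7 CPM, with a ratio of 0.962. *Pdgfrb* in G12D/E2-KO T2 stood at 9.26 CPM (ratio 0.891) and in G12D/E2-KO T3 at 16 CPM (ratio 0.917). All 3 are libraries of the genotype for which the genes were chosen, so they add no support to that choice.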

How the results depend on the processing

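Of 540 alternative values for 46 results, 474 kept their direction and their side of the threshold or moved by less than the spread. Calls rest on small margins with 3 libraries per genotype, and depth limits *Igfbp7* (10 to 227 UMIs per library) and *Pdgfrb* (52 to 247). The cause of each change was not tested.

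With *Xist* as a covariate the log2 value was -0.069 for *Fabp5* in T3 against T1, -0.10 for *Crip1* in G12D and 1.77 for *Igfbp7* in T3 against T1 (adjusted p 0.0382). With the tables as deposited it was -0.036 for *Fabp5* and -0.11 for *Igfbp7* in T3 against T1. With T1 and T2 alone it was 0.039 and 0.27 for the interactions of *Fabp5* and *Crip1*, -0.19 for *Crip1* in G12D and -0.046 for *Pdgfrb* in G12D. DESeq2 called *Crip1* in E2-KO at 0.91. Without the replicate block (time point) *Crip1* in G12D was -0.018 and *Fabp5* in E2-KO 0.79 (adjusted p 0.0275), and no call of a member changed.

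Without each library in turn the values ran from 0.71 to 0.86 for *Fabp5* in E2-KO, from -0.066 to 0.21 in T3 against T1 and from 0.66 to 0.91 in G12D/E2-KO. They ran from -0.18 to 0.23 for *Crip1* in G12D, from -0.17 to 0.67 for *Igfbp7* in E2-KO and from -0.96 to 0.60 for *Igfbp7* in T3 against T1. For *Pdgfrb* they ran from -0.035 to 0.22 in E2-KO, from -0.063 to 0.18 in G12D and from -0.11 to 0.25 in T3 against T1. The number of members and classes past the threshold in a single mutant was 1 in 8 classes, 0 to 5 without a library, 2 without gate limits and 3 with T1 and T2 alone.

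With classes from WT clusters *Fabp5* in WT ProMo was 223 CPM, and the fixed-mix values were 0.65 for *Fabp5* in E2-KO and -0.050 for *Igfbp7* in G12D. Over all cells edgeR called 204 genes in E2-KO, against 454 by DESeq2, 623 with only WT and E2-KO fitted, 416 with *Xist* and 95 as deposited. In G12D it called 14, against 147 by DESeq2, 24 with only WT and G12D fitted, 27 with no low-count filter and 8 as deposited. Without 1 library the E2-KO count was 66, 69, 73, 135, 89 and 126 (without WT T2, WT T3, E2-KO T1, E2-KO T2, E2-KO T3 and G12D T1) or 315 and 458 (without G12D/E2-KO T1 and T3), and otherwise within 1.5 times. The G12D count was 4, 7 and 6 (without WT T1, T2 and T3), 9, 7 and 8 (without E2-KO T2, G12D T1 and G12D T3) or 136 and 26 (without G12D T2 and G12D/E2-KO T3), so the shares of genes called given as background move as well. For T3 against T1 it called 0, against 19 by DESeq2 and 143 with *Xist*. A fit of only the groups compared cannot give the interaction or T3 against T1.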
